A study of Mus musculus with 12 samples.

Results

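Mouse LLC1 cells, a line grown from the Lewis lung carcinoma, that received 10 Gy of ionizing radiation as 5 fractions of 2 Gy (5x2 Gy) were compared with the same cells given 10 Gy at once. All arrays titled with either schedule were taken, 3 per schedule, which made 6 of the 12 arrays of the study. The labels describe the 3 samples of a group as biological replicates, RNA was taken 4 h after irradiation in both groups, and the interval between fractions is not given in the sources used here. Untreated cells and cells given 2 Gy once make up the other 6 arrays. They entered the common estimate of the spread, the choice of probes and the floor described below. The summed dose is the same on both sides, so the comparison concerns the schedule, including the time since the first fraction. Each array is a 1-colour Agilent miRNA array hybridised with 100 ng of Cy3-labelled total RNA.

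MicroRNAs are short RNAs that guide Argonaute proteins to partly complementary messenger RNAs and lower their output. Pairing runs mainly through the seed, bases 2 to 8 of the mature strand, so miRNAs with the same seed share many targets. Ionizing radiation breaks DNA and activates ATM and p53, which raises transcription of the miR-34 genes, and several other miRNAs are known to act on checkpoint, repair and survival genes. Splitting a dose leaves time for repair between fractions.

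Few miRNAs separated the schedules. Of 566 mouse entries on the array, 118 could be tested, and miR-30c-5p, miR-125a-5p and miR-100-5p passed as higher after 5x2 Gy (limma, Benjamini-Hochberg adjusted p under 0.05). These 3 are 2.54% of the tested miRNAs. Of them, miR-125a-5p was detected on all 6 arrays, with a change of 0.29 on the log2 scale; miR-30c-5p and miR-100-5p were detected on 1 of the 3 arrays of 10 Gy and entered the test through the 5x2 Gy group, so their differences are taken from the lower limit of measurement. Among the 62 miRNAs detected on all 6 arrays, tested alone, 0 passed (limma; 11 higher at an unadjusted p under 0.05). None passed the test as lower (0 of 118, 0%), and 0 had an unadjusted limma p under 0.05 in that direction, against 18 (15.3%) in the higher direction. All 118 entered the test through the 5x2 Gy group, so the 2 directions did not enter alike. The slides were not balanced between the schedules. On slide 1 were 10 Gy replicates 1 and 2, and on slide 2 was 10 Gy replicate 3, beside the 3 arrays of 5x2 Gy. A change with the slide as a block (blocked) thus equals the 5x2 Gy mean minus 10 Gy replicate 3. It sets 3 arrays against 1, so not passing with the block does not show that a change is absent. With the slide as a block, miR-30c-5p was the 1 miRNA that passed (0.847%).

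The mature strands of the 8 miRNAs with the smallest p among the 24 shown in the plot of levels are printed below, because they carry the comparison. Each is followed by those tested miRNAs with its seed whose names matched. They are RefSeq sequences of GRCm38.p6, matched by name, which was possible for 101 of the 118 tested names, and capitals mark the seed. miR-30c-5p (higher) and 2 family members with its seed, regulators of differentiation and autophagy genes, read as follows.
miR-30c-5p: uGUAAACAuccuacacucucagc
miR-30a-5p: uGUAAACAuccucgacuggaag
miR-30e-5p: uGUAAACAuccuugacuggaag
miR-125a-5p (higher) and miR-125b-5p are the mammalian kin of the worm timing gene lin-4.
miR-125a-5p: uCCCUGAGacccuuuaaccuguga
miR-125b-5p: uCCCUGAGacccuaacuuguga
miR-100-5p (higher), miR-99a-5p and miR-99b-5p act on mTOR, the growth kinase.
miR-100-5p: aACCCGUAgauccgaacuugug
miR-99a-5p: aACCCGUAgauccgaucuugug
miR-99b-5p: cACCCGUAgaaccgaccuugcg
miR-199a-5p is a miRNA of mesenchymal cells.
miR-199a-5p: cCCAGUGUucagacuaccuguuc
miR-26a-5p and miR-26b-5p act on Ezh2, the enzyme that places the repressive methyl mark on histone H3.
miR-26a-5p: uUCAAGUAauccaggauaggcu
miR-26b-5p: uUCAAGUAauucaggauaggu
miR-93-5p and miR-106b-5p share the seed of the miR-17 family with miR-20a-5p and miR-20b-5p, and lower the cell cycle inhibitor p21.
miR-93-5p: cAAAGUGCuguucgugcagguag
miR-106b-5p: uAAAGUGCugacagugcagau
miR-20a-5p: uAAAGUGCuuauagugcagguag
miR-20b-5p: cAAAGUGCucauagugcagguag
miR-25-3p and miR-92a-3p, from clusters of the same ancestry, act on the pro-apoptotic gene Bim.
miR-25-3p: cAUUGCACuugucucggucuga
miR-92a-3p: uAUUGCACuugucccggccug

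The arrays of the 2 schedules differed in brightness. The 75th percentile of signal over the 78 probes detected on every array of the study was 388, 307 and 867 on the 10 Gy arrays and 1088, 1102 and 1004 on the 5x2 Gy arrays. The array of 10 Gy replicate 3 was the brightest of its group, and the groups did not overlap. The untreated arrays, at 346, 110 and 703, and the 2 Gy arrays, at 316, 897 and 324, were all on slide 1. The part of the slide in brightness was not tested. The difference of the log2 means was 1.18 (exact permutation test, two-sided, p = 0.1, the smallest p that 3 against 3 arrays allow), and 0.29 against 10 Gy replicate 3 alone. Detected miRNAs numbered 73, 62 and 115 on the 10 Gy arrays and 120, 137 and 124 on the 5x2 Gy arrays, a mean of 83.3 ± 28.0 against 127 ± 8.89 (SD, n = 3 each; exact two-sided permutation p = 0.1). Against 10 Gy replicate 3 alone the difference was 12 miRNAs instead of 43.7. Levels below are log2 of the signal over that percentile, so a level of 0 equals the percentile, and signals under 0.0598 of it were set to a floor of -4.06.

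Detection ran one way. The 118 tested miRNAs were those detected on all 3 arrays of 5x2 Gy, and 62 of them were also detected on all 3 arrays of 10 Gy. The remaining 56 were detected on fewer 10 Gy arrays, and 50 of these 56 were detected on 10 Gy replicate 3, the array on slide 2, 39 of them on no other 10 Gy array. The reverse, detection on all 10 Gy arrays and fewer 5x2 Gy arrays, occurred for 0 miRNAs. Of the 118, 6 were detected on no 10 Gy array: miR-146a-5p, miR-214-5p, miR-34b-3p, miR-34c-3p, miR-425-5p and miR-99a-5p. These lay at the floor on every one of the 6 arrays once scaled, so no fold is given for them. The part of brightness and slide in detection was not tested.

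Markers of epithelial cells were not detected in these carcinoma cells, and those of mesenchymal cells were detected in part. Of the 7 epithelial entries on the array, among them the miR-200 family that holds cells in the epithelial state, 0 were detected on any of the 6 arrays. Of 7 entries of mesenchymal cells 6 were tested. Of these, 4 were detected on all 6 arrays, among them miR-199a-3p and miR-214-3p. After 10 Gy, miR-143-3p was detected on 1 of the 3 arrays and miR-214-5p on 0. The entry not tested, miR-145a-5p, was detected on 0 of the 6 arrays. Of 6 blood cell entries 2 were tested, both arms of miR-142a, and miR-142a-3p lay at -0.76, -0.93 and -1.32 on the 10 Gy arrays and at -1.29, -0.84 and -1.08 on the 5x2 Gy arrays. The schedules overlapped in that miRNA, and fewer cells of a type and less RNA per cell cannot be told apart in such samples.

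miR-30c-5p had the smallest p. Its level was at the floor of -4.06 on all 3 arrays of 10 Gy and was -3.83, -3.74 and -3.83 on the 5x2 Gy arrays. Every 5x2 Gy array was thus above every 10 Gy array, and the means of untreated cells (-4.06) and of 2 Gy cells (-4.06) were at the floor as well. The fit gave 0.26 (limma adjusted p = 8.93e-05; 0.00485 with the slide as a block), which is the distance from the floor. The untreated, 2 Gy and 10 Gy arrays were all set to the floor and add no spread, so this p does not rest on measured variation in those groups, and no interval or fold is given. Before the floor was set, miR-30c-5p gave 4.02%, 4.56% and 5.28% of the array's percentile on the 10 Gy arrays and 7.02%, 7.48% and 7.05% on the 5x2 Gy arrays, again without overlap. It was detected on 1 of the 3 arrays of 10 Gy, replicate 3. A floor 4 times lower gave a change of 0.65 (limma adjusted p = 0.0161), and a floor 2 times higher left it at the floor on all 6 arrays. With both the slide block and the lower floor the change was 0.45 and did not pass (limma adjusted p = 0.655).

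miR-125a-5p was the one called miRNA well above the floor. Its level was -2.30, -2.28 and -2.13 on the 10 Gy arrays and -1.92, -1.93 and -1.98 on the 5x2 Gy arrays. All 5x2 Gy arrays were higher, and 10 Gy replicate 3 was the highest of its group. Untreated cells had a mean of -2.26 and 2 Gy cells one of -2.37. The change of 0.29 (SE 0.05, 95% interval 0.18 to 0.41) is a fold of 1.23 (limma adjusted p = 0.0215). With the slide as a block it was 0.19 and did not pass (limma adjusted p = 0.314). The related miR-125b-5p, transcribed elsewhere, lay at 0.77, 0.77 and 0.40 after 10 Gy and at 0.93, 0.81 and 0.81 after 5x2 Gy, which gave 0.21 (95% interval -0.19 to 0.60, limma adjusted p = 0.656). Its 10 Gy replicate 3 was the lowest of the 6 arrays, so the blocked value, 0.45, was larger than the one from all arrays.

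miR-100-5p passed with 0.20 (limma adjusted p = 0.047), in large part a distance from the floor, so no interval or fold is given. Its level was -4.06 on 10 Gy replicates 1 and 2, the floor, -3.90 on replicate 3, and -3.82, -3.83 and -3.79 on the 5x2 Gy arrays. The 10 Gy array of slide 2 thus sat nearer to the 5x2 Gy arrays than to its own group, and the blocked change was 0.09 (limma adjusted p = 0.239). A floor 4 times lower gave 0.66, which did not pass (limma adjusted p = 0.289). With the same seed, miR-99b-5p was at -2.80, -2.88 and -2.37 after 10 Gy and at -2.14, -2.13 and -2.04 after 5x2 Gy, a change of 0.58 (95% interval 0.02 to 1.14, limma adjusted p = 0.305; blocked 0.26). The groups of miR-99b-5p did not overlap. With normexp background correction of the raw signals, miR-30c-5p, miR-125a-5p and miR-100-5p changed sign, to -0.18, -0.11 and -0.19 (limma adjusted p = 0.781 each), where the median of all tested miRNAs was -0.16. In GRCm38.p6 the genes Mir99b, Mirlet7e and Mir125a follow each other, and Mir100 lies in the non-coding host gene Mir100hg.

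**Figure D1:**
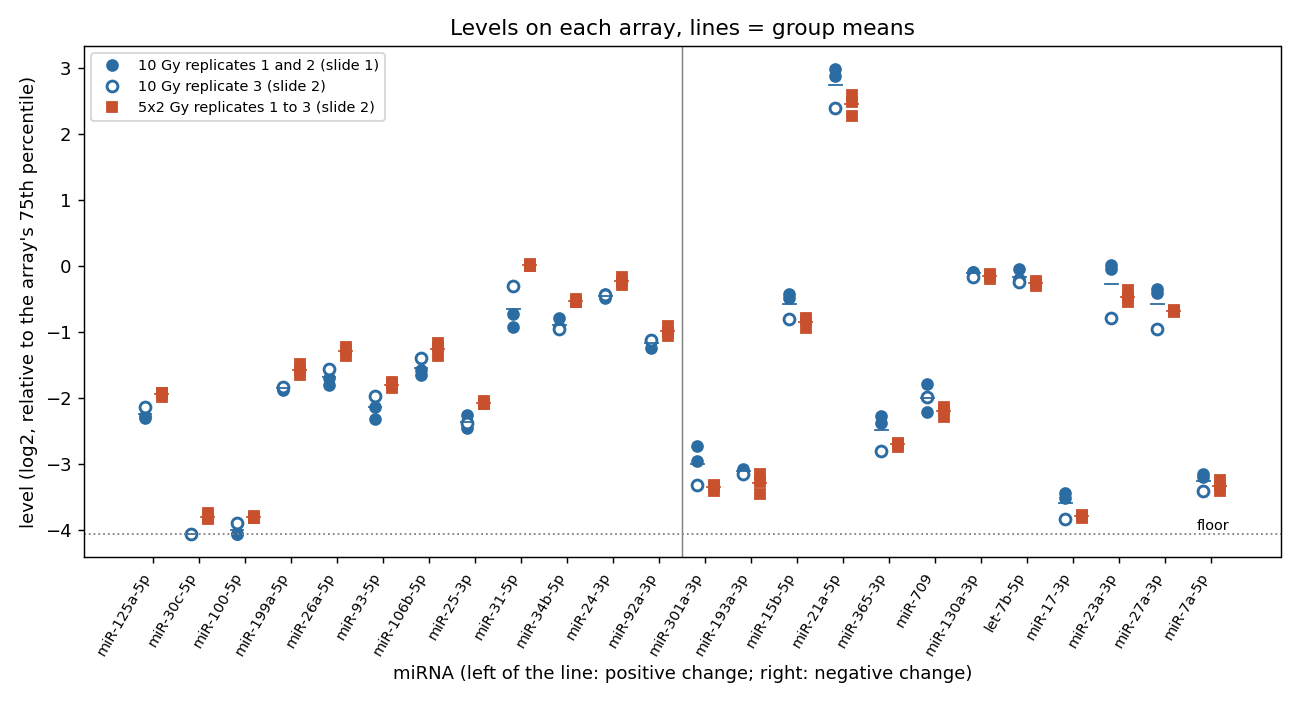
Level of the 24 named miRNAs on each of the 6 arrays (vertical axis, log2 of signal over the array's 75th percentile); filled circles are 10 Gy replicates 1 and 2, open circles 10 Gy replicate 3, squares the 5x2 Gy arrays, short lines the group means and the dotted line the floor of -4.06. Left of the vertical line all 12 miRNAs have 5x2 Gy squares above every 10 Gy circle; right of it the open circle lies among or near the squares for most miRNAs.

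miR-199a-5p has 2 genes, Mir199a-1 inside Dnm2 and Mir199a-2 next to Mir214 inside Dnm3os, which the mature strand does not tell apart. miR-199a-5p lay just outside the threshold (limma adjusted p = 0.0503). Its level was -1.86, -1.87 and -1.83 on the 10 Gy arrays and -1.49, -1.65 and -1.58 on the 5x2 Gy arrays. The 3 arrays of 10 Gy lay close together whatever their slide, and all 5x2 Gy arrays were above them. The change was 0.28 (95% interval 0.14 to 0.42), a fold of 1.21, and 0.26 with the slide as a block (limma adjusted p = 0.612). The other strand of the same hairpins, miR-199a-3p, was at 0.50, 0.59 and 0.41 after 10 Gy and at 0.49, 0.46 and 0.52 after 5x2 Gy. Its groups overlapped and its change was -0.01 (95% interval -0.30 to 0.27).

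miR-26a-5p was at -1.69, -1.80 and -1.56 after 10 Gy and at -1.36, -1.22 and -1.29 after 5x2 Gy. The groups did not overlap, and the change was 0.39 (95% interval 0.16 to 0.63, limma adjusted p = 0.117; blocked 0.27). Its seed partner miR-26b-5p had a change of 0.02 (95% interval -0.24 to 0.27), with overlapping groups.

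The Mcm7 cluster gave 3 of the 12 named higher values. Mir106b, Mir93 and Mir25 lie next to each other inside Mcm7, a gene of the replicative helicase, and are transcribed with it. miR-93-5p was at -2.13, -2.32 and -1.97 after 10 Gy and at -1.85, -1.76 and -1.78 after 5x2 Gy. miR-106b-5p was at -1.57, -1.65 and -1.40 against -1.36, -1.17 and -1.23, and here 10 Gy replicate 3 nearly reached the lowest 5x2 Gy array. miR-25-3p was at -2.26, -2.46 and -2.38 against -2.09, -2.05 and -2.09, with 10 Gy replicate 3 inside its own group. The changes of these 3 were 0.34, 0.29 and 0.29 (limma adjusted p = 0.165, 0.192 and 0.229), and blocked 0.17, 0.14 and 0.31. None passed the adjusted test. In each of them every 5x2 Gy array exceeded every 10 Gy array, beside 25.4% of all tested miRNAs. The same held for all 12 named higher miRNAs, which were chosen by their p. miR-92a-3p of the related Mir17hg cluster changed by 0.17 (95% interval 0.01 to 0.33, limma adjusted p = 0.283; blocked 0.14).

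miR-31-5p, often abundant in lung carcinoma, had the largest change among the 12 named higher miRNAs. It lay at -0.73, -0.93 and -0.31 on the 10 Gy arrays and at 0.0043, 0.034 and 0.0048 on the 5x2 Gy arrays. Its 10 Gy replicate 3 was far above replicates 1 and 2, and untreated cells had a mean of -0.20. The change of 0.67 (95% interval 0.11 to 1.23, limma adjusted p = 0.258) became 0.32 with the slide as a block. miR-24-3p, which acts on the histone gene H2afx that marks DNA breaks, was at -0.49, -0.43 and -0.44 after 10 Gy and at -0.16, -0.28 and -0.23 after 5x2 Gy. The 10 Gy arrays of both slides lay together in that miRNA, and the change was 0.23 (95% interval 0.03 to 0.43, limma adjusted p = 0.258; blocked 0.22).

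miR-34b-5p, a direct p53 target, was at -0.92, -0.79 and -0.95 on the 10 Gy arrays and at -0.55, -0.55 and -0.49 on the 5x2 Gy arrays. Every array of both schedules was above the means of untreated cells (-1.74) and of 2 Gy cells (-1.19), and the 2 schedules did not overlap. The change between schedules was 0.36 (SE 0.14, 95% interval 0.04 to 0.67, limma adjusted p = 0.258), a fold of 1.28, and 0.42 with the slide as a block. miR-34c-5p, from the adjacent gene Mir34c, was chosen for display after its values were seen. It was at -0.66, -0.41 and -1.43 after 10 Gy and at -0.84, -1.05 and -0.92 after 5x2 Gy. The 5x2 Gy arrays lay between the 10 Gy arrays of the 2 slides, so its change was -0.10 (95% interval -1.07 to 0.87) over all arrays and 0.50 against 10 Gy replicate 3.

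miR-22-3p had a gap between the schedules that was wide beside the scatter inside them. Its level was -2.41, -2.44 and -2.25 after 10 Gy and -1.58, -1.62 and -1.63 after 5x2 Gy. The 10 Gy array of slide 2 stayed with its own group, and the groups were far from overlap. The change was 0.76 (SE 0.37, 95% interval -0.10 to 1.61, limma adjusted p = 0.404), with a spread taken from all 12 arrays. A fit of the 6 arrays alone called it (limma adjusted p = 0.0123). The untreated arrays, at -1.64, -3.28 and -1.99, spread more widely than either schedule, and they enter the spread of the fit on 12 arrays. With the slide as a block the change was 0.64 (limma adjusted p = 1).

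Lower values after 5x2 Gy did not pass in any of the 12 named cases, and in most of them 10 Gy replicate 3 lay with the 5x2 Gy arrays. miR-21a-5p, which lowers the tumour suppressor Pdcd4, was at 2.88, 2.98 and 2.39 after 10 Gy and at 2.27, 2.60 and 2.48 after 5x2 Gy. Its 10 Gy array of slide 2 was inside the range of the 5x2 Gy arrays, and the change of -0.30 (95% interval -0.89 to 0.29, limma adjusted p = 0.656) became 0.06 with the slide as a block. miR-301a-3p, of the miR-130 seed family, was at -2.95, -2.73 and -3.32 against -3.41, -3.32 and -3.34, a change of -0.35 (95% interval -0.78 to 0.07, limma adjusted p = 0.419), and -0.03 when blocked. miR-15b-5p, which acts on Bcl2, was at -0.48, -0.43 and -0.80 against -0.95, -0.79 and -0.81, a change of -0.28 (95% interval -0.80 to 0.24; blocked -0.05). In all 3 of these miRNAs the 10 Gy arrays of slide 1 were above the 4 arrays of slide 2.

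miR-23a-3p and miR-27a-3p, made from one transcript with miR-24, showed the same split by slide and more of it. miR-23a-3p was at -0.04, 0.01 and -0.78 after 10 Gy and at -0.36, -0.55 and -0.48 after 5x2 Gy. The 5x2 Gy arrays lay between the 10 Gy arrays of the 2 slides, so the change was -0.19 (95% interval -0.87 to 0.48) over all arrays and 0.32 when blocked. miR-27a-3p was at -0.41, -0.35 and -0.96 against -0.67, -0.69 and -0.68, which gave -0.11 (95% interval -0.49 to 0.28) and, when blocked, 0.28.

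The other 7 named lower miRNAs ranged from -0.22 to -0.04 in change. miR-365-3p gave -0.22 (blocked 0.11) and miR-17-3p, the minor strand of the miR-17 hairpin, -0.20 (blocked 0.04). miR-193a-3p, which acts on Mcl1, gave -0.18 (blocked -0.14), and miR-709 gave -0.20 (blocked -0.22). let-7b-5p gave -0.10 (blocked -0.02), miR-7a-5p, which acts on Egfr, -0.08 (blocked 0.09), and miR-130a-3p -0.04 (blocked 0.01). Their groups overlapped in all 7 cases.

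**Figure D2:**
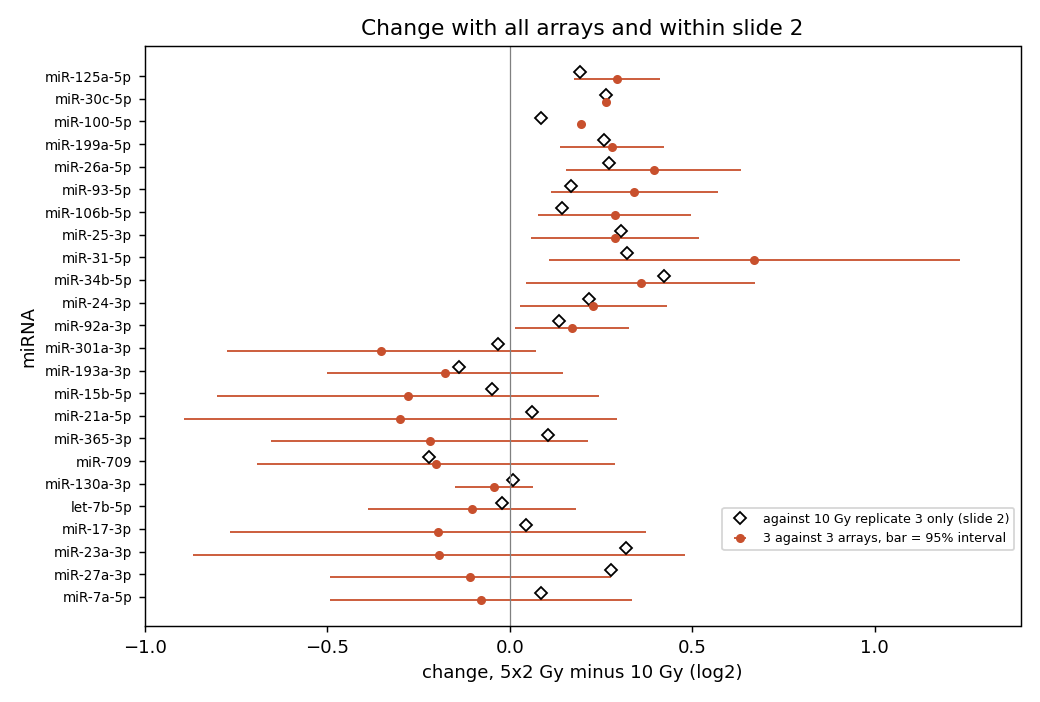
Change between schedules (horizontal axis, log2, 5x2 Gy minus 10 Gy) for the 24 named miRNAs; points with bars are the values from 3 against 3 arrays with 95% intervals (none for miR-30c-5p and miR-100-5p, at the floor on 10 Gy arrays), open diamonds the 5x2 Gy mean minus 10 Gy replicate 3, which shares their slide. The 12 upper miRNAs keep a positive value in both, from 0.09 to 0.42 for the diamonds; of the 12 lower ones 7 change sign, with miR-23a-3p going from -0.19 to 0.32.

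Slide 2 allows a comparison within 1 slide, against 1 array of 10 Gy. The spread of that fit comes from the 3 arrays of 5x2 Gy, and the variation of 10 Gy samples is not in it. At an adjusted p under 0.05 it marked 9 miRNAs (7.63%), which are given as values without their p. Of these, 7 had positive differences: miR-22-3p, miR-23b-3p, miR-27a-3p, miR-31-5p, miR-34b-5p, miR-25-3p and miR-221-3p. The 5x2 Gy mean minus 10 Gy replicate 3 was 0.64 for miR-22-3p, 0.42 for miR-34b-5p, 0.32 for miR-31-5p and 0.31 for miR-25-3p. Over all 6 arrays, which include those of slide 2, the groups of these 4 did not overlap. This held, as higher, for 25.4% of all tested miRNAs. The groups of miR-27a-3p, miR-23b-3p and miR-221-3p overlapped. miR-23b-3p and miR-221-3p, named because they were marked here, gave 0.45 and 0.34 on slide 2 and -0.07 and -0.10 over all arrays, because 10 Gy replicates 1 and 2 lay above the 5x2 Gy arrays. The 2 with negative differences, miR-574-5p and miR-21a-3p, were at or near the floor on every 5x2 Gy array. Their differences are thus distances from the floor, at least in part. Before the floor was set, miR-574-5p gave 5.36%, 5.41% and 6.02% of the array's percentile after 10 Gy. After 5x2 Gy it gave 4.07%, 4.16% and 4.11%, without overlap. miR-21a-3p gave 4.74%, 3.01% and 6.01% against 3.39%, 4.99% and 4.28%, with overlap. None of the 3 miRNAs called over all arrays was among the 9.

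Distance was taken to the range of the 5x2 Gy arrays and to the range of 10 Gy replicates 1 and 2. Over all tested miRNAs, 10 Gy replicate 3 was closer to the 5x2 Gy range in 64 cases. It was closer to the range of replicates 1 and 2 in 25 and level in 29. Among the 77 miRNAs above the floor on all 6 arrays these counts were 55 and 22. Correlations of levels across the 118 miRNAs, which are not independent, say the same of the arrays. They were 0.993, 0.996 and 0.996 between 10 Gy replicate 3 and the 5x2 Gy arrays, 0.985 and 0.974 with 10 Gy replicates 1 and 2, and 0.996 between those 2. The median SD of a miRNA above the floor was 0.14 among the 10 Gy arrays, which span both slides, and 0.064 among the 5x2 Gy arrays, which lie on 1. Slide and scan coincide in these files, so which of them the difference follows cannot be told apart.

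**Figure D3:**
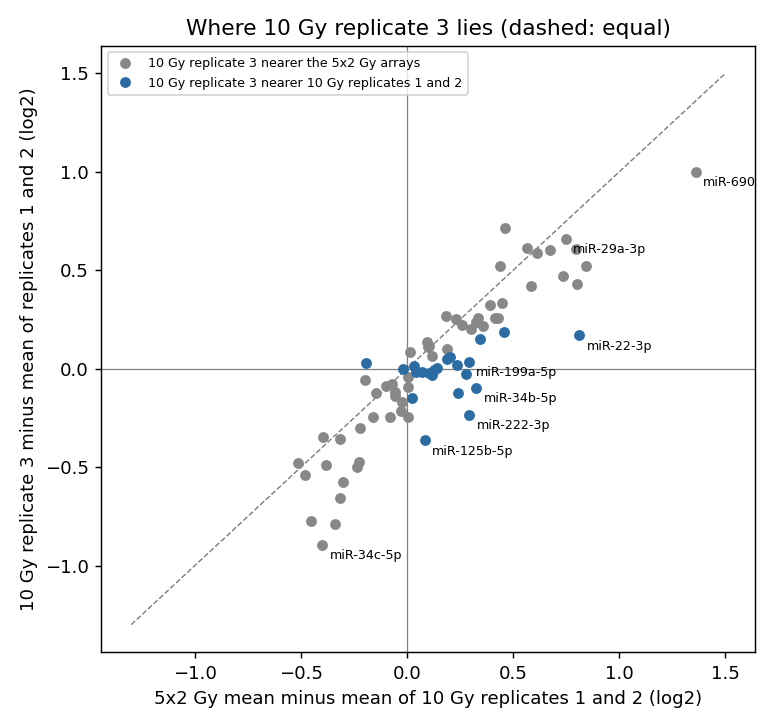
For the 77 miRNAs above the floor on all 6 arrays, the 5x2 Gy mean (horizontal axis) and 10 Gy replicate 3 (vertical axis), each minus the mean of 10 Gy replicates 1 and 2 (log2); both axes share that mean. Grey points, 55, have 10 Gy replicate 3 nearer the 5x2 Gy arrays, and blue points, 22, nearer its own group, among them miR-22-3p, miR-34b-5p and miR-199a-5p.

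The groups did not overlap in 30 miRNAs that were higher after 5x2 Gy (25.4% of the tested) and in 1 that was lower (0.847%), miR-574-5p, which lay at the floor on the 5x2 Gy arrays. All 118 entered the test through the 5x2 Gy group, and 62 of them were detected on every 10 Gy array. The 2 directions thus did not enter alike, and their counts are not compared. Of the 30, 10 Gy replicate 3 was nearer to the 5x2 Gy arrays in 16 and nearer to its own group in 14. The median change over all tested miRNAs was 0.03, with 63 positive and 31 negative values, and the median within slide 2 was 0.06. The largest change was that of miR-690, an entry often traced to fragments of other RNAs. Its level was -3.43, -3.84 and -2.63 after 10 Gy and -2.16, -2.38 and -2.27 after 5x2 Gy. It was detected on 2 of the 3 arrays of 10 Gy. Its change of 1.03 (95% interval -0.73 to 2.79, limma adjusted p = 0.607) did not exceed the spread over the 12 arrays, and it was 0.36 with the slide as a block. The groups of the 2 schedules did not overlap in miR-690, while the untreated arrays alone ran from -3.98 to -1.13.

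**Figure D4:**
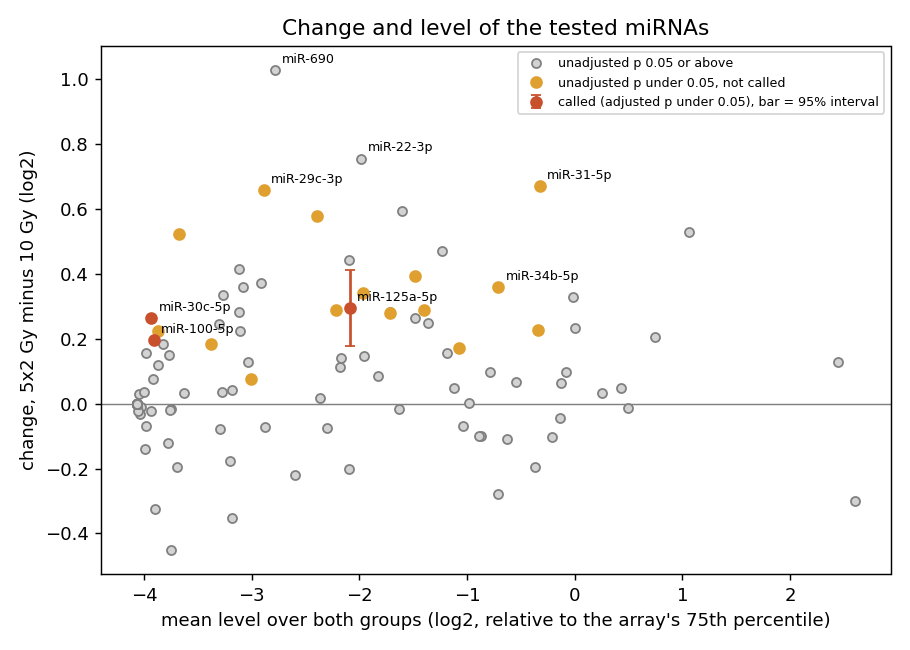
Change between schedules (vertical axis, log2, 5x2 Gy minus 10 Gy) against the mean level over both groups (horizontal axis, log2) for the 118 tested miRNAs; red points passed the adjusted test, with a 95% interval for miR-125a-5p, and yellow points had an unadjusted p under 0.05. Of the 3 red points, miR-30c-5p and miR-100-5p lie near the floor; all 15 yellow points are above 0.

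By lists of known function, the miR-29 and miR-30 families, which restrain matrix and differentiation genes, had 1 of 8 tested members called, 4 with an unadjusted p under 0.05 and 6 without overlap, beside 2.54%, 15.3% and 25.4% of all tested miRNAs. Of the 8, 3 were detected on all 6 arrays, and the others entered the test through the 5x2 Gy group. The called member was miR-30c-5p, at the floor on the 10 Gy arrays. The median change of the 8 was 0.30, and 0.15 when blocked, beside 0.03 and 0.06 for all tested miRNAs. miR-29a-3p, which acts on collagen and DNA methyltransferase genes, was at 0.56, 0.58 and 1.23 after 10 Gy and at 1.33, 1.31 and 1.32 after 5x2 Gy. Its 10 Gy array of slide 2 lay just below the 5x2 Gy arrays, and the change of 0.53 (95% interval -0.09 to 1.15, limma adjusted p = 0.414) became 0.09 when blocked. miR-29c-3p gave 0.66 (95% interval 0.19 to 1.12, limma adjusted p = 0.192; blocked 0.37), and miR-30e-5p, whose gene is next to Mir30c-1 in Nfyc, gave 0.52 with 10 Gy replicates 1 and 2 at the floor (limma adjusted p = 0.229; blocked 0.27). miR-30b-5p was at -3.45, -3.52 and -3.43 against -3.25, -3.26 and -3.35, a change of 0.18 (limma adjusted p = 0.312), with the 10 Gy arrays of both slides together.

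The miR-17 clusters, which drive proliferation under Myc, had 0 of 12 tested members called, 4 with an unadjusted p under 0.05 (miR-93-5p, miR-106b-5p, miR-25-3p and miR-92a-3p) and 6 without overlap, beside 15.3% and 25.4% of all tested miRNAs for the last 2 counts. The change was positive in 11 of the 12, beside 63 of all 118 and 43 of the 62 detected on all 6 arrays. The median was 0.29, beside 0.03 for all tested miRNAs. In 10 of the 12 the array of 10 Gy replicate 3 was nearer to 5x2 Gy, and the blocked median was 0.10. miR-18a-5p, which acts on Atm, was at -2.34, -2.58 and -2.04 against -1.95, -1.82 and -1.86, without overlap (change 0.44, limma adjusted p = 0.402; blocked 0.16).

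Among 8 tested p53-responsive miRNAs 0 were called, 2 had an unadjusted p under 0.05 and 2 had no overlap, miR-34b-5p and miR-16-5p, beside 15.3% and 25.4% of all tested miRNAs. The median change was 0.08, and 0.11 when blocked. miR-16-5p, an inhibitor of cyclin D1 synthesis, was at -1.58, -1.76 and -1.07 after 10 Gy and -1.01, -1.01 and -0.98 after 5x2 Gy. Its replicate 3 reached almost the 5x2 Gy level, so the change of 0.47 (95% interval -0.01 to 0.95, limma adjusted p = 0.327) became 0.07 when blocked. miR-107-3p gave 0.08 (limma adjusted p = 0.304). Its median and quantile scaled changes were -0.05 and -0.06.

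Of 18 tested miRNAs of the DNA damage response, which act on checkpoint and repair genes, miR-100-5p was the 1 called, 3 had an unadjusted p under 0.05 and 7 had no overlap, beside 2.54%, 15.3% and 25.4% of all tested miRNAs. The count at an unadjusted p is near that background. The median change was 0.07, and 0.08 when blocked. miR-222-3p, which lowers the inhibitor p27, was at -3.02, -3.02 and -3.26 against -2.57, -2.82 and -2.80, a change of 0.37 (95% interval -0.08 to 0.82, limma adjusted p = 0.42) and of 0.53 when blocked. The miR-99/100 and miR-125 families had 2 of 6 called and 4 without overlap (median 0.20, blocked 0.14), beside 2.54% and 25.4% of all tested miRNAs. Of these 6, 3 were detected on all 6 arrays, and the called miR-100-5p was not among them.

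No member was called in the other lists, and without overlap were 25.4% of all tested miRNAs as higher and 0.847% as lower. The let-7 family, regulators of differentiation, had 0 of 9 called, 0 without overlap and a median of 0.05 (blocked 0.04). The 5 of the miR-23/27/24 clusters had a median of -0.07 and of 0.28 when blocked, and 0 were called. The carcinoma-linked list had 0 of 13 called, 3 without overlap (miR-31-5p, miR-22-3p and miR-222-3p) and a median of 0 (blocked 0.08). The 6 inflammation miRNAs had 0 called and a median of -0.01 (blocked 0.03), and the 6 mesenchymal ones had 0 called and a median of 0.08 (blocked 0.13). The 4 of the miR-15/16 family had 0 called (median 0.05, blocked 0.07). The 2 of the miR-26 family had 0 called (median 0.21, blocked 0.16), and the 2 blood cell ones 0 called (median 0.04, blocked 0.20). Entries often traced to rRNA, tRNA or GC-rich background had 0 of 7 called, 2 without overlap as higher and 1 as lower, and a median of 0.13 (blocked 0). Members with an unadjusted limma p under 0.05 numbered 1 each in the miR-23/27/24, carcinoma-linked, mesenchymal and miR-26 lists and 0 in the let-7, inflammation, miR-15/16, blood cell and rRNA, tRNA or GC-rich lists. miR-494-3p of that list gave 0.59 (95% interval -0.92 to 2.11, limma adjusted p = 0.801).

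**Figure D5:**
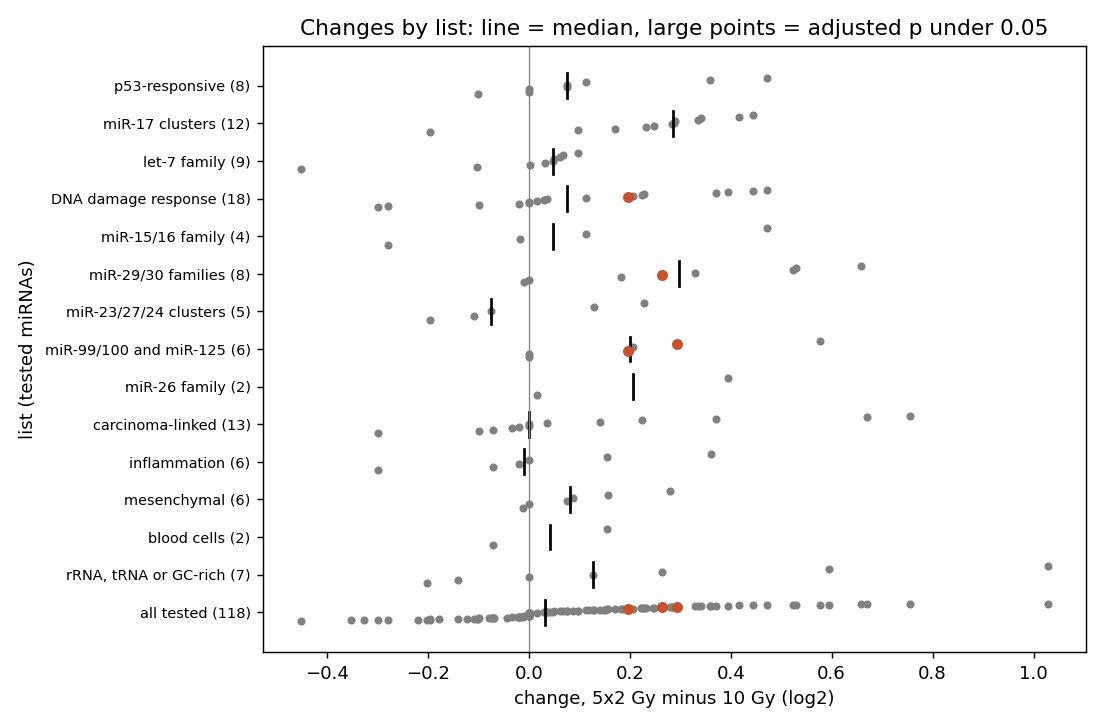
Change between schedules (horizontal axis, log2, 5x2 Gy minus 10 Gy) of the tested miRNAs in each list, with the number tested in brackets; vertical lines are medians and large red points passed the adjusted test. The miR-29/30 and miR-17 lists have medians of 0.30 and 0.29 beside 0.03 for all 118.

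Among the 101 tested miRNAs with a matched sequence, 18 seeds were shared by at least 2; tested members without a matched sequence are not in these counts and medians. The miR-29 seed had the highest median of the 18, 0.53, and a blocked median of 0.16. All 3 matched members were positive (0.33 to 0.66) and without overlap as higher, beside 25.4% of all tested miRNAs. Of these members, miR-29c-3p was detected on 2 of the 3 arrays of 10 Gy. The seed of miR-93-5p and miR-106b-5p had a median of 0.27 over 4 matched members (blocked 0.11), and that of miR-125a-5p and miR-125b-5p one of 0.25 (blocked 0.32). miRNAs with one seed could differ: miR-30c-5p and miR-30e-5p gave 0.26 and 0.52 while miR-30a-5p, near the floor, gave -0.01 (95% interval -0.07 to 0.05). Across the 66 miRNAs above the floor with a sequence, the change had little relation to GC content (Pearson r 0.167, Spearman rho 0.195) or to the level (r -0.018, rho 0.055), as descriptions across miRNAs of the same arrays.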

How the data were processed

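The deposited scanner files give linear intensity per spot, with flags for controls, outliers, saturation and signal well above background, per the file headers. The submitters' processing notes name Agilent Feature Extraction 10.7.3.1, and the processed signal is background subtracted and spatially detrended within the array, per the file headers. The authors' deposited values on the log2 scale equal the log2 of that signal shifted by 1 constant per array (within 1e-04, column means 1.98, medians -0.19 to 1.14) and served as an alternative. Its scale, centring and direction were thus settled. The headers name mm9, the sequences come from GRCm38.p6, so no coordinates are given.

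Outlier spots (2.06 to 4.98% per array) and controls were dropped; saturation was flagged on 0 spots. The remaining spots were averaged per probe, divided by the array's 75th percentile over 78 probes detected on all 12 arrays, set to at least 0.0598 of it, and log2 transformed. That floor is the median, over all 12 arrays, of the lowest scaled signal of a detected probe. In log2, this lowest signal was -3.58, -3.00 and -5.29 on the 10 Gy arrays. On the 5x2 Gy arrays it was -5.34, -5.79 and -5.46. Detection of a probe required the well-above-background flag on more than 0.5 of the spots, and levels average the probes that reached this on 3 or more arrays (several probes for 90 tested miRNAs, 1 for 28). A miRNA detected on all 3 arrays of any group was tested. Detection thus sets which miRNAs appear, and all 118 passed through the 5x2 Gy group.

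Files were loaded with the R package data.table, version 1.17.8. In R 4.3.3, limma 3.58.1 was fitted on 12 arrays without covariates (8 residual, 0.45 prior degrees of freedom), two-sided, with Benjamini-Hochberg adjustment over 118 miRNAs at 0.05, after a test on simulated data. Intervals are at 95% and the number of arrays limits the precision. No 2 arrays held identical values. Named miRNAs are those called, then the smallest unadjusted p among miRNAs detected on all 6 arrays up to 12 per direction, then up to 4 members of a list. The members, lists and sequences were chosen with earlier results of these data known. Alternatives changed the slide or replicate block, scaling, floor, filter, probe choice, background correction and arrays. The normexp alternative used the median spot signal, since these scanner files hold no mean signal. The 10 herpesvirus entries were detected on 0 arrays and left out.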

Additional observations from a re-analysis of the deposited data

How the results depend on the processing

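Changes of single miRNAs turned sign in 105 of 675 values (a miRNA under an alternative that keeps all arrays of both groups or takes slide 2), and the cause was not tested. With the slide as a block, and equally within slide 2, the values that turned were miR-21a-5p 0.060, miR-365-3p 0.11, miR-130a-3p 0.0077, miR-17-3p 0.044, miR-23a-3p 0.32, miR-27a-3p 0.28, miR-7a-5p 0.085, miR-34c-5p 0.50, miR-221-3p 0.34, miR-23b-3p 0.45. With the slide block and a floor 4 times lower, an alternative chosen after seeing the data, they were miR-301a-3p 0.089, miR-21a-5p 0.060, miR-365-3p 0.11, miR-130a-3p 0.0077, miR-17-3p 0.11, miR-23a-3p 0.32, miR-27a-3p 0.28, miR-7a-5p 0.098, miR-34c-5p 0.50, miR-221-3p 0.34, miR-23b-3p 0.45, and 0 miRNAs were called (limma; 5 at an unadjusted p under 0.05). Dividing by the 75th percentile of all probes moved the median of all changes to 1.08, gave 94 calls, all higher, and turned miR-301a-3p 0.69, miR-193a-3p 0.63, miR-15b-5p 0.85, miR-21a-5p 0.83, miR-365-3p 0.91, miR-709 0.91, miR-130a-3p 1.08, let-7b-5p 1.02, miR-17-3p 0.71, miR-23a-3p 0.93, miR-27a-3p 1.02, miR-7a-5p 0.69, miR-34c-5p 1.03, miR-221-3p 1.03, miR-23b-3p 1.05. No scaling (median 1.11, 24 calls, all higher) turned miR-301a-3p 0.73, miR-193a-3p 0.60, miR-15b-5p 0.90, miR-21a-5p 0.88, miR-365-3p 0.96, miR-709 0.91, miR-130a-3p 1.14, let-7b-5p 1.08, miR-17-3p 0.69, miR-23a-3p 0.99, miR-27a-3p 1.07, miR-7a-5p 0.68, miR-34c-5p 1.08, miR-221-3p 1.08, miR-23b-3p 1.11. The authors' deposited log2 values (median 1.17) gave 0 calls (limma; 22 higher at an unadjusted p under 0.05) and turned miR-301a-3p 0.52, miR-193a-3p 0.65, miR-15b-5p 0.67, miR-21a-5p 0.65, miR-365-3p 0.73, miR-709 0.75, miR-130a-3p 0.91, let-7b-5p 0.84, miR-17-3p 0.70, miR-23a-3p 0.78, miR-27a-3p 0.84, miR-7a-5p 0.65, miR-34c-5p 0.85, miR-221-3p 0.86, miR-23b-3p 0.88. Relative to these medians 14 of 15, 14 of 15 and 15 of 15 of the turned values are negative. normexp at an offset of 50 (median -0.16) gave 0 calls (limma; 2 higher at an unadjusted p under 0.05) and turned miR-125a-5p -0.11, miR-30c-5p -0.18, miR-100-5p -0.19, miR-199a-5p -0.055, miR-93-5p -0.054, miR-25-3p -0.19, miR-92a-3p -0.0022, miR-29c-3p -0.096, miR-222-3p -0.22, miR-99b-5p -0.015, miR-30e-5p -0.19, miR-30b-5p -0.14, miR-107-3p -0.25, of which 7 of 13 lie above that median. Array brightness as a covariate gave 4 calls and turned miR-15b-5p 0.031, miR-21a-5p 0.091, miR-365-3p 0.039, miR-130a-3p 0.010, let-7b-5p 0.081, miR-17-3p 0.20, miR-23a-3p 0.26, miR-27a-3p 0.14, miR-7a-5p 0.19, miR-34c-5p 0.58, miR-690 -0.13, miR-494-3p -0.31, miR-221-3p 0.27, miR-23b-3p 0.31. Median scaling turned miR-107-3p -0.049 and quantile scaling miR-107-3p -0.060. Leaving out 1 array turned 4 miRNAs, over miR-23b-3p -0.34 to 0.092, miR-27a-3p -0.30 to 0.0028, miR-34c-5p -0.40 to 0.11, miR-221-3p -0.32 to 0.028, in each case without 10 Gy replicate 1 or 2.

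The count of 3 called miRNAs became 2 in the 6 arrays alone, 1 with the slide block, 9 within slide 2, 1 with median scaling, 1 with quantile scaling, 4 with a floor 4 times lower and 1 with a floor 2 times higher, which puts miR-30c-5p and miR-100-5p at the floor. It was 0 of 62 with only miRNAs detected on all 6 arrays (limma; 11 higher at an unadjusted p under 0.05), 1 without a filter and 3 with the brightest probe. Leaving out 1 array gave 1 to 3 calls; miR-30c-5p was called each time, and miR-125a-5p and miR-100-5p were called in 1 case, without 10 Gy replicate 3. Whether replicate numbers pair the samples was not settled. Deviations of same-numbered arrays from their group means correlated at -0.035, -0.15 and 0.037. These include the slide difference of 10 Gy replicate 3, so they cannot decide it. The replicate block gave 2 calls, miR-30c-5p and miR-125a-5p. Of the alternatives in which it was tested, miR-30c-5p passed in 17 of 22, miR-125a-5p in 4 of 23 and miR-100-5p in 4 of 22. The difference in detected miRNAs was 12 within slide 2, and 33 to 59.5 with 1 array left out. The log2 difference in brightness was 0.29 within slide 2, 0.055 for the 75th percentile of all probes, and 0.87 to 1.62 with 1 array left out. A signal near background limits what the dimmer 10 Gy arrays can show.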
